A study of Mus musculus with 16 samples.

Results

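Histone genes were described in 2 myeloid populations sorted from the brains of mice that had received α-synuclein. A gene counted as a member when its current mouse symbol begins with H1f, H2ac, H2bc, H2ax, H2az, H3c, H3f, H4c or H4f as the histone nomenclature writes them, and 71 of the 18580 genes listed in the libraries met this naming rule. No measured value entered the naming rule, but the family was chosen by earlier results of these data, among them the large differences of H2ac24 between treatments and genotypes, so the values of H2ac24 in those comparisons are given as a description without a test. Another 9 symbols of the reference that fit the pattern, among them H1f8, H2ac1 and H2bc1, were listed in none of the 16 libraries.

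Bilateral striatal injections of monomeric α-synuclein (MONO) or pre-formed fibrils (PFF) were given at 12 weeks of age to CD163KO mice (CD163tm1.1(KOMP)Vlcg) and wild-type (WT) littermates on C57BL/6N, and cells were sorted 2 months later. Each combination of sex, genotype and treatment was represented by 1 library of macrophages (CD11b+/CD45high) and 1 of microglia (CD11b+/CD45low or intermediate), with 7 mice in each WT condition, 5 in each CD163KO condition and 4 in the male CD163KO MONO condition. The knockout removes the receptor from every cell, MONO is itself an injected protein and no uninjected or saline-injected brain was analysed here. Whether a library pools animals or stands for 1 of the triplicates is not stated, so the p-values below describe the spread between libraries of different conditions. The mice came in 2 batches that the labels assign to no library, so the part of the batch in any comparison was not tested.

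The libraries held 8648751 to 21433841 estimated counts. Cd163 was listed at 7.95 to 65.33 FPKM in the 4 WT macrophage libraries and at 0 to 0.01 in the 4 CD163KO ones. In microglia it was at 1.21 and 1.43 FPKM in WT females, 0 and 0.01 in WT males and 0.07 to 0.32 in CD163KO libraries, so its level there does not separate the genotypes in males. Each of the 12 homeostatic microglia markers was detected in every library of both populations, with a summed level of 19815 to 46096 FPKM in microglia against 1221 to 2830 in macrophages. The macrophage gate also takes in neutrophils and NK cells. The 12 neutrophil markers summed to 22112 to 134489 FPKM in macrophage libraries against 947 to 2706 in microglia, and the 12 NK and T cell markers to 50.02 to 249.74 against 0.34 to 5.91, with 1 to 7 and 6 to 10 of them at 0. The border-associated macrophage markers summed to 29982 to 162647 FPKM in macrophages, with at most 1 of 12 at 0, against 1171 to 6740 in microglia. The male WT PFF and the male CD163KO MONO microglia libraries stood apart, with Cst3 taking 19.7% and 18.3% of their counts against 4.62% to 5.54% in the other microglia libraries, and the female CD163KO MONO microglia library held 14.3 FPKM of 4 Y-linked genes against at most 0.05 in the other female libraries. Class sums, ratios and population fits are also given without these libraries, and comparisons that cannot be made without them are marked.

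DNA is wrapped around octamers of the core histones H2A, H2B, H3 and H4, and the linker histone H1 binds between them. Most histone genes lie in clusters and are transcribed in S phase, when new DNA needs packaging, and their mRNAs normally end in a conserved stem-loop instead of a poly(A) tail. Variant histones such as H3.3, H2A.Z and H1.0 are encoded by single genes outside the clusters, are made throughout the cell cycle as polyadenylated mRNAs and replace the canonical proteins in cells that do not divide. SMART-seq2 primes cDNA on poly(A) tails, so clustered histone mRNAs that end in a stem-loop are captured poorly, and the levels given here are those of the captured transcripts.

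The 71 members comprised 60 clustered genes, 50 of them on chromosome 13 and 10 on chromosome 3, and 11 variant or other single genes. Of these 11, H1f6 lies among the clustered genes of chromosome 13. To show what sets the classes apart in sequence, the 3′ stem-loop was searched in the GENCODE transcripts of GRCm38 as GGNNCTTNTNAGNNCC on the transcript's own strand. It was found in 42 of 60 clustered members, or 42 of the 49 whose model includes sequence after the stop codon, in 3 of 10 variant members with a matched model, and in 0.356% of 58797 protein-coding transcripts. The 3 variant members with a match were H1f6, H2ax and H4f16. No match was found in the models of H3f3a, H3f3b, H2az1, H2az2, H1f0 and H1f10, nor in those of the clustered genes H2bc4, H2bc21 and H2bc23, whose models do reach beyond the stop codon.

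The stem-loops of abundant members are printed here, in GRCm38, with the matched letters in capitals, because this element sets the replication-dependent mRNAs apart. H2ac18 (chr3:96246026-96246053, plus strand) and H1f2 (chr13:23739506-23739533, plus strand) were among the most abundant clustered genes, H2ac23 (chr13:21810892-21810919, plus strand) and H2ac24 (chr13:21833026-21833050, minus strand) encode near-identical H2A mRNAs, H4c9 (chr13:22040960-22040987, minus strand) is an H4 gene and H2ax (chr9:44335234-44335261, plus strand) encodes the variant that is phosphorylated at DNA breaks.
H2ac18: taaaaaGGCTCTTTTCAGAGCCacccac
H2ac23: aaaaaaGGCTCTTTTCAGAGCCatccac
H2ac24: aaaaaaGGCTCTTTTCAGAGCCatc
H1f2: ccaaaaGGCTCTTTTCAGAGCCaccact
H4c9: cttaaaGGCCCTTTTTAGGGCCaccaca
H2ax: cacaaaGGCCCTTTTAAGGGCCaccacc
The matched letters were the same in H2ac18, H2ac23, H2ac24 and H1f2, while those of H4c9 and H2ax differed from these and from each other. The annotated transcript ended 3 bases after the match in H2ac24, 31 in H2ac23 and 35 in H2ac18, but ran on for 840 bases in H1f2, 822 in H2ax and 330 in H4c9.

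Clustered genes of a family share long stretches of coding sequence, so that a read can map to several of them and is divided by estimation. Of the 60 clustered members, 56 shared at least 1 run of 50 bases with another member, the median share of shared 50-base runs was 49.4%, and 28 members shared at least 50% of them. Among the 10 variant members with a model, only H2ax shared any, 6.14% of its runs. All 50-base runs of H2ac19 occurred in H2ac18, and 93.5% of those of H2ac23 occurred in H2ac24. Divided reads show as counts that are not whole, a value within 0.005 of a whole number being counted as whole. Whole numbers made up 3.33% of the values above 0 of clustered H2A genes, 16.9% of clustered H2B, 29.3% of clustered H4 and 38.4% of variant members. Counts were scored per transcript, so reads divided between transcripts of the same gene show in the same way. Variant H2A members were whole in 6.58%, although H2az1 and H2az2 shared no run with another member. The share of whole numbers alone therefore does not show division between members. Values of single clustered H2A genes are uncertain, and sums over a class or a pair are given beside them.

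Few clustered genes were measured well. An FPKM of at least 1 in any library was reached by 45 clustered and 9 variant members, 8 clustered and 6 variant members had a count in all 16 libraries, and 12 clustered members had one in at most 2. Over the 16 libraries 18 clustered and 6 variant members had a median FPKM of at least 1.

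H3f3b, 1 of a pair of genes for the replacement histone H3.3, was the most abundant histone transcript. Its level ranged from 1885 to 9797 FPKM in macrophages, with a median of 3626, and from 597 to 2186 FPKM in microglia, with a median of 1174. It made up 48.3% to 91.9% of the summed histone FPKM in macrophages and 36.9% to 85.6% in microglia. The other H3.3 gene, H3f3a, which encodes the same protein, reached 56.9 to 501 FPKM in macrophages (median 213) and 28.1 to 175 in microglia (median 117). H2az1, the main gene for H2A.Z, was second, at 225 to 1117 FPKM in macrophages (median 453) and 101 to 336 in microglia (median 256). The ranges of the populations overlapped for all 3 genes.

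The remaining variant members were far lower. H2az2, the second H2A.Z gene, was at 15 to 72.6 FPKM in macrophages (median 33.2) and 7.13 to 45.1 in microglia (median 37.6). H1f0, the linker histone of resting and differentiated cells, was at 21.8 to 93.4 FPKM in macrophages (median 56.6) and 11.75 to 84.4 in microglia (median 40.9). H2ax was at 5.42 to 49.6 FPKM in macrophages (median 13.7) and 1.42 to 13.9 in microglia (median 8.07). The linker gene H1f10 was listed at 0 in 6 macrophage and 7 microglia libraries, H4f16 reached 3.66 FPKM at most, and H1f7, a testis linker histone, was listed above 0 in 1 library only, at 2.96 FPKM. H1f6 and H3f4 stayed under 1 FPKM in every library.

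**Figure D1:**
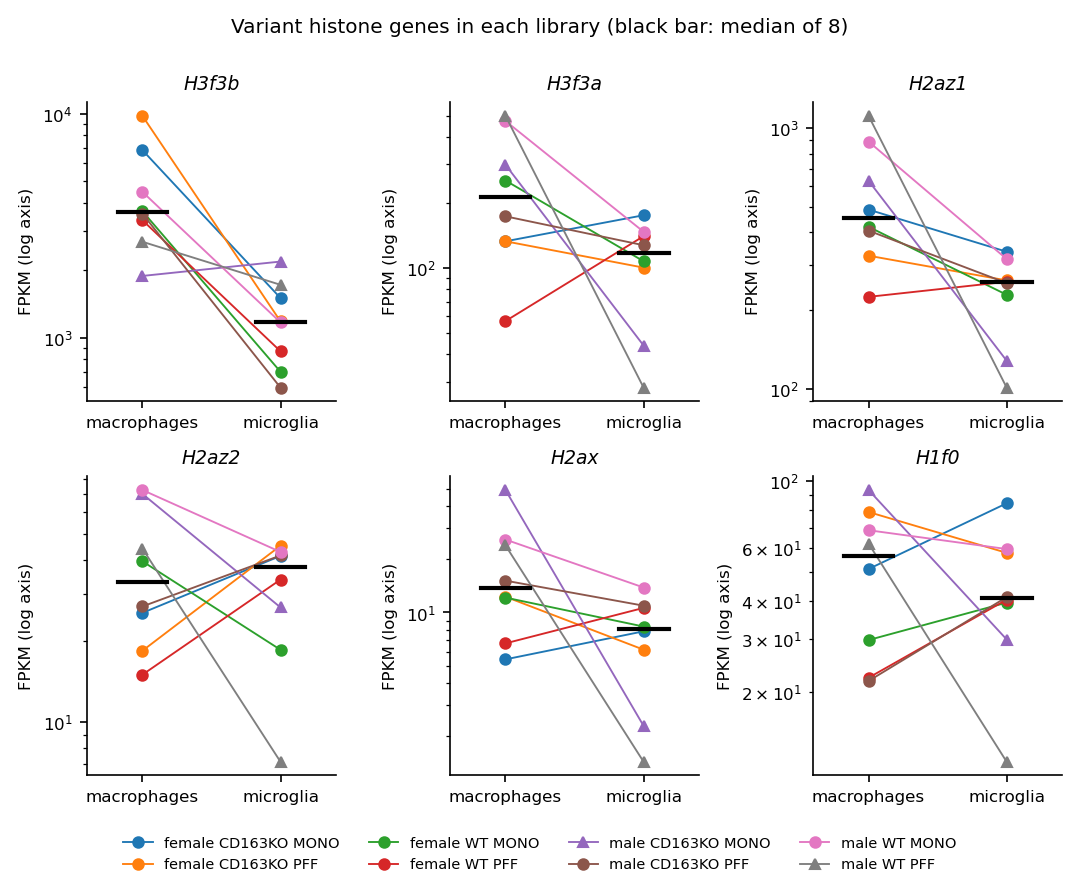
FPKM of the 6 abundant variant histone genes in each library (log axes), with a line joining the macrophage and the microglia library of each of 8 conditions and a black bar at the population median. H3f3b lay higher in macrophages in 7 of 8 conditions and H2az1 in 7 of 8, and the triangles mark the male WT PFF and male CD163KO MONO conditions, in which H3f3b differed least and the other 5 genes were lower in microglia.

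A few genes carried the clustered class. H2bc4, which encodes a canonical H2B and whose model has no stem-loop match, was at 44.25 to 275 FPKM in macrophages (median 121) and 48.4 to 208 in microglia (median 193). H2ac18, an H2A gene of the smaller cluster on chromosome 3, was at 62.2 to 178 FPKM in macrophages (median 95.8) and 31.3 to 195 in microglia (median 146). H2ac23 was at 53.1 to 287 FPKM in macrophages (median 128) and 29.4 to 58.9 in microglia (median 43.1), higher in macrophages in 8 of 8 conditions. The linker gene H1f2 was at 16.8 to 49.5 FPKM in macrophages (median 22.05) and 12.1 to 63.1 in microglia (median 24.7). Clustered H3 genes were barely captured, together at most 1.96% of the clustered FPKM in any library.

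Among the H4 genes, H4c9 had the highest median in microglia, at 1.70 to 18.95 FPKM (median 11.01), against 0 to 14.3 in macrophages (median 2.28). H4c17 was at 1.69 to 17.3 FPKM in microglia (median 7.86) and 1.95 to 49.3 in macrophages (median 5.39). H4c4, H4c8 and H4c3 had medians of 5.50, 4.12 and 2.43 FPKM in microglia and of 3.47, 0.925 and 1.10 FPKM in macrophages. Of the other named clustered genes, H2bc8 had medians of 8.89 FPKM in macrophages and 11.85 in microglia, H2bc23 of 3.05 and 0.98, H2bc21 of 2.04 and 2.12, H2ac8 of 2.20 and 2.60, and H2bc18 of 0 and 1.52. These genes overlapped between the populations.

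**Figure D2:**
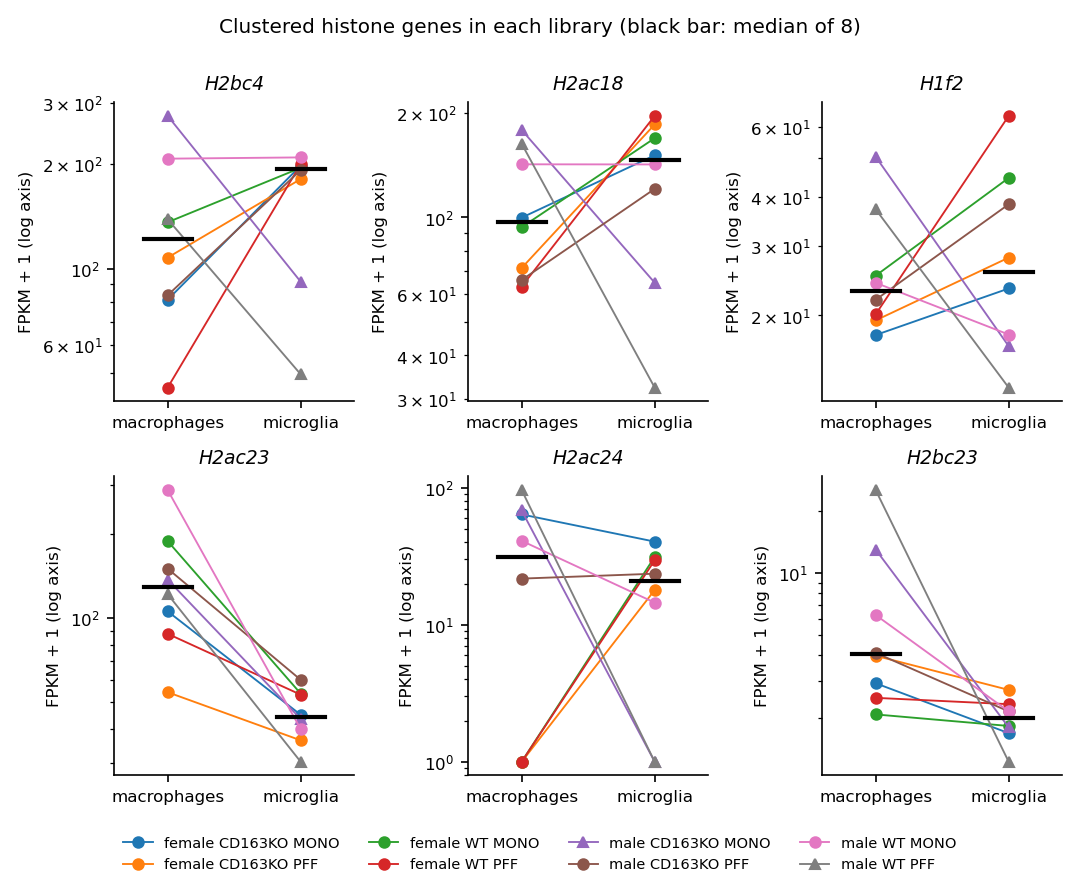
FPKM + 1 of 6 clustered histone genes in each library (log axes), drawn as for the variant genes. H2ac23 and H2bc23 lay higher in macrophages in 8 of 8 conditions, while H2bc4 and H2ac18 lay higher in microglia in most conditions but not in the 2 marked by triangles, and H2ac24 was listed at 0 in 5 libraries.

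The clustered and the variant class were compared between the populations within each library, where no scaling between libraries enters. The summed FPKM of variant members exceeded that of clustered members in all 16 libraries. It was 3.46 to 34.8 times the clustered sum in macrophages (median 9.79) and 1.82 to 13.4 times in microglia (median 3.48), higher in macrophages in 6 of 8 conditions. The exceptions were the male WT PFF condition, with 6.57 in macrophages and 13.4 in microglia, and the male CD163KO MONO condition, with 3.46 and 9.63. These values followed H3f3b, whose level relative to H3f3a was 5.35 and 6.32 in the macrophage libraries of these conditions, 9.44 to 73.9 in the other macrophage libraries, 61.2 and 49.8 in the microglia libraries of these conditions and 4.70 to 11.8 in the other microglia libraries. The scaling factor of the trimmed mean of M values (TMM), which reflects how far a few genes take up a library, moved with them: it was 1.34 and 1.57 in these macrophage libraries against 0.326 to 0.878 in the others, and 0.427 and 0.809 in these microglia libraries against 1.93 to 2.09 in the others. Its part in the level of H3f3b was not tested. In the 5 conditions without the 3 microglia libraries that stand apart, the ratio of variant to clustered sum was 7.55 to 34.8 in macrophages and 1.82 to 3.85 in microglia. It was higher in macrophages in 5 of 5.

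Without H3f3b the ratio did not overlap. The other 10 variant members summed to 1.30 to 2.59 times the clustered sum in macrophages (median 1.67) and to 0.671 to 1.27 times in microglia (median 0.904), higher in macrophages in 8 of 8 conditions. In the 5 conditions without the 3 microglia libraries that stand apart it was 1.34 to 1.92 in macrophages and 0.671 to 1.27 in microglia. This ratio was computed after the values had been seen and carries no test. The female CD163KO MONO and the male WT MONO microglia libraries lay highest among microglia and the male CD163KO MONO macrophage library lowest among macrophages. The clustered sum itself was 244 to 875 FPKM in macrophages (median 455) and 140 to 681 in microglia (median 537), higher in microglia in 5 of 8 conditions, and its direction turned with the scaling: the median log2 difference between macrophages and microglia was -0.35 on deposited FPKM and 1.19 after TMM scaling. Without the conditions that hold the 3 microglia libraries it was -0.46 on deposited FPKM, higher in macrophages in 1 of 5. For the variant sum it was 1.80 on deposited FPKM, higher in macrophages in 8 of 8 conditions, and 3.77 after TMM scaling, higher in 6 of 8, and without the conditions that hold the 3 microglia libraries named above it was 1.98 on deposited FPKM, higher in macrophages in 5 of 5.

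**Figure D3:**
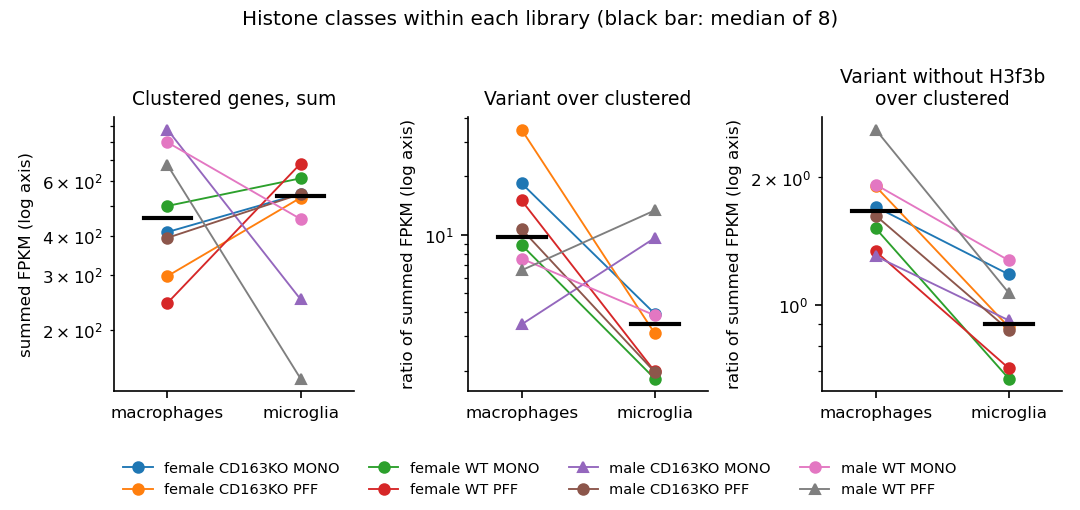
Summed FPKM of the 60 clustered genes (left), ratio of summed variant to summed clustered FPKM (middle) and the same ratio without H3f3b (right) in each library, on log axes, joined by condition and with black bars at the population medians. In the right panel macrophages lie at 1.30 to 2.59 and microglia at 0.671 to 1.27, and in the middle panel the 2 conditions marked by triangles run against the other 6.

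The families also took different shares of the clustered signal. Clustered H2A genes made up 42.3% to 65.6% of the clustered FPKM in macrophages (median 58.8%) and 39.1% to 46.8% in microglia (median 43.6%), higher in macrophages in 7 of 8 conditions. Clustered H2B genes made up 23.02% to 46.6% in macrophages (median 30.0%) and 36.8% to 49.0% in microglia (median 40.1%), lower in macrophages in 7 of 8. Without the conditions of the 3 microglia libraries that stand apart the H2A share was higher in macrophages in 4 of 5 (medians 60.2% and 42.5%) and the H2B share lower in 4 of 5 (medians 29.6% and 39.9%). Clustered H4 genes made up 2.90% to 8.69% in macrophages and 3.36% to 10.7% in microglia, and clustered H1 genes 3.14% to 8.12% and 3.73% to 11.5%. The H2A difference followed H2ac23 and H2ac24, which together were at 53.1 to 327 FPKM in macrophages (median 179) and 29.4 to 83.3 in microglia (median 66.4), higher in macrophages in 8 of 8 conditions.

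Populations were then compared with edgeR's quasi-likelihood test on TMM-scaled counts, in 14 libraries with the condition as a block. The male CD163KO MONO condition was left out. A gene was called when its Benjamini-Hochberg adjusted p, over all 13704 genes tested, was at most 0.05 and its log2 difference at least 1 in size. All 6 abundant variant genes and 2 clustered genes were higher in macrophages, and no member was lower. Those 8 were among the 40 members that passed the filter on low counts, a filter that the group with the higher count can satisfy alone. Over all genes tested 16.9% were called, 10.6% as higher and 6.22% as lower in macrophages. DESeq2 called 31.1% of the same genes, 14.2% as higher and 16.9% as lower. These shares rest on single libraries: edgeR called 26.9% and 26.7% of all genes without the male WT PFF macrophage or microglia library, with 12.3% and 12.1% lower, and 11.2% to 11.7%, with 3.42% to 4.08% lower, without any 1 of the other 12. The median log2 difference was 2.25 for the 6 variant members tested and 0.73 for the 34 clustered members, beside -0.37 for all genes. The clustered median does not have a settled sign: it was -0.094 without the male WT MONO macrophage library and -0.0070 without the male WT MONO microglia library, 0.43 to 0.96 without any 1 of the other 12 and -0.30 with limma on log2(FPKM + 1).

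H2az1 had the smallest adjusted p among members, with a log2 difference of 2.41 ± 0.22 (SE; adjusted p = 2.31e-05), and H3f3a followed with 2.28 ± 0.26 (adjusted p = 8.98e-05). The log2 difference of H3f3b was the largest among the 8 genes called, at 3.78 ± 0.76 (adjusted p = 0.00458). H2ax differed by 2.22 ± 0.40 (adjusted p = 0.00216), H2az2 by 1.48 ± 0.30 (adjusted p = 0.004997) and H1f0 by 1.41 ± 0.22 (adjusted p = 0.000877). The clustered genes called were H2ac23, with 2.98 ± 0.43 (adjusted p = 0.000535), and H2bc23, with 3.54 ± 0.79 (adjusted p = 0.00823). All 8 were also called in each of the 14 fits that left out 1 library, with DESeq2, with the median-of-ratios scaling, without the filter, without the block, with the male CD163KO MONO libraries and without the female CD163KO MONO and male WT PFF microglia libraries.

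The other 32 clustered members tested gave log2 differences from -3.57 to 7.27, 19 above 0 and 13 below, with SEs of 0.24 to 3.39 (median 1.98). H2ac18, at 0.96 ± 0.24 (adjusted p = 0.0175), missed the limit on the log2 difference. H1f2, at 1.06 ± 0.40 (adjusted p = 0.0930), missed that on the adjusted p, and H2bc4, at 0.69 ± 0.24 (adjusted p = 0.0675), missed both. H4c9 differed by -0.49 ± 1.25 and H2ac24 by 0.38 ± 2.65, with SEs larger than the differences.

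The direction of several clustered genes differed between edgeR and limma on deposited FPKM, fits that differ in test, unit, pseudocount, filter and scaling. With the median-of-ratios scaling in edgeR 21 clustered members were above 0 and 13 below, as with TMM. When limma was run on log2(FPKM + 1) as deposited, 595 genes were called higher and 5144 lower in macrophages, 4.47% and 38.6% of 13318 and 43.1% in all, the median log2 difference over all genes moved from -0.37 to -0.89, and 54 members were tested. H3f3b was still called higher, with a log2 difference of 2.11 ± 0.25 (adjusted p = 6.33e-05), as was H2ac23, with 1.51 ± 0.39 (adjusted p = 0.00707). The same fit called H2bc14 higher and H2bc6, H4c8 and H4c9 lower, of which H2bc14 and H2bc6 are named after their values were seen. H4c9 differed by -1.53 ± 0.41 (adjusted p = 0.00932), H4c8 by -1.24 ± 0.36 (adjusted p = 0.0131), H2bc6 by -1.13 ± 0.35 (adjusted p = 0.0180) and H2bc14 by 1.64 ± 0.50 (adjusted p = 0.0175). H2az1 (1.02 ± 0.40), H2bc23 (1.22 ± 0.47), H3f3a (0.88 ± 0.54) and H2ax (0.71 ± 0.49) stayed above 0 on this scale without being called, and H2az2 (0.09 ± 0.50) and H1f0 (0.02 ± 0.45) lay near 0. H2ac18, H2bc4 and H1f2 turned to -0.43, -0.63 and -0.33. Relative to the median of all genes, each of the 8 genes called by edgeR lay higher in macrophages on either scale. So did H2ac18, H2bc4 and H1f2, which neither fit called, so this does not set the 8 apart.

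**Figure D4:**
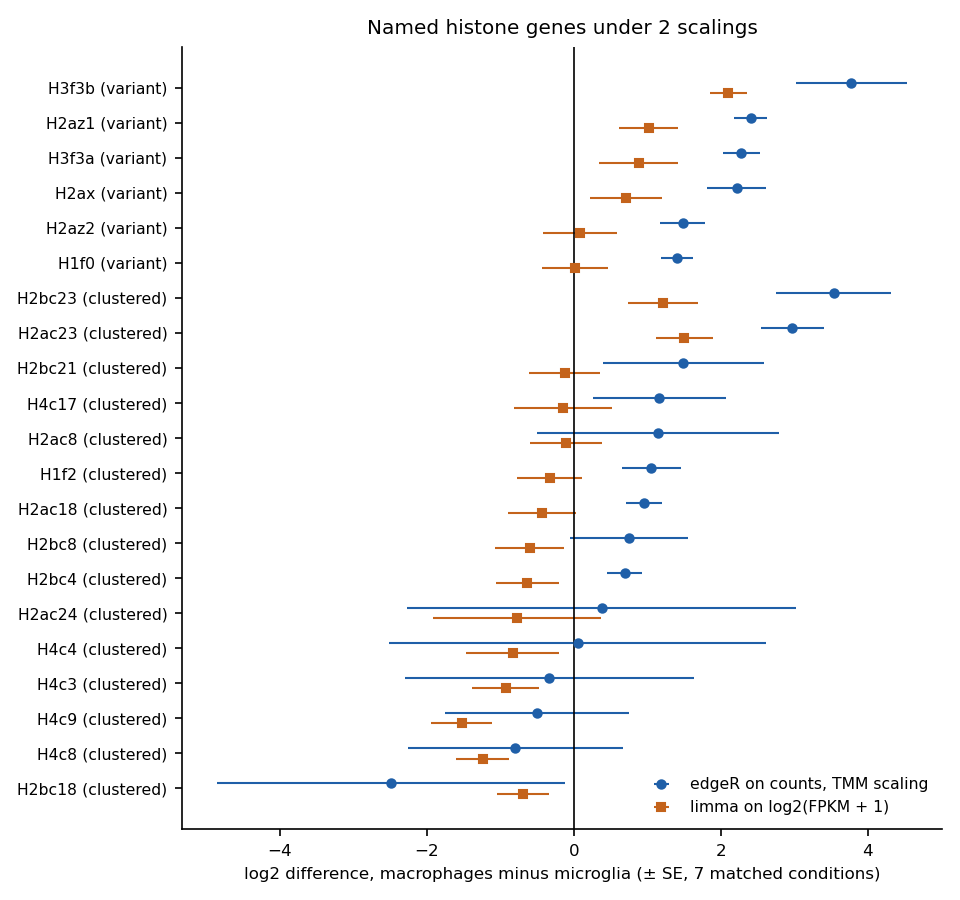
Log2 difference between macrophages and microglia (± SE) for 21 named histone genes, from edgeR on TMM-scaled counts (circles) and limma on log2(FPKM + 1) as deposited (squares), over 7 matched conditions. The variant genes, H2ac23 and H2bc23 lie above 0 on both scales, while H2ac18, H2bc4 and H1f2 change side. Of the variant genes, H2az2 and H1f0 lie near 0 with limma, within their SE. On deposited FPKM each of these 2 was higher in macrophages in 4 of 8 conditions.

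H2ac23 and H2bc23, the clustered genes that were called, lie head to head on chromosome 13 with their start sites 168 bases apart, 1 of 8 such H2A and H2B pairs among the members whose 300-base promoter windows overlapped on opposite strands. The 250 bases before the H2ac23 start site (RefSeq, GRCm38.p6, chr13:21810117-21810366, plus strand) are shown because they hold the sequence between both genes, with CCAAT boxes on either strand in capitals.
H2ac23 promoter: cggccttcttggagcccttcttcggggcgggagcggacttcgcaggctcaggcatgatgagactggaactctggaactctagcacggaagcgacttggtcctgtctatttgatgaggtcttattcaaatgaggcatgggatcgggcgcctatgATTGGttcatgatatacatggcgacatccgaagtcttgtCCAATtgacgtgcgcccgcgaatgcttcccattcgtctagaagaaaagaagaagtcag
The promoter window of H2ac24 shared an identical run of 200 of 300 bases with that of H2ac23, so that these genes are alike before as well as within the transcript. H3f3b, the most abundant member, is shown for contrast (chr11:116024505-116024754, minus strand), with CCAAT boxes, a TATA box and an octamer in capitals.
H3f3b promoter: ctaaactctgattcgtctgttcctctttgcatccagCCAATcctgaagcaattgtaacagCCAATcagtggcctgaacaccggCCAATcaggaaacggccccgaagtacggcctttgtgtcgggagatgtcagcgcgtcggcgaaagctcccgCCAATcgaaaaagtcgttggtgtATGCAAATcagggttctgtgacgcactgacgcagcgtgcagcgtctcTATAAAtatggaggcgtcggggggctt
The H3f3b window held 4 CCAAT boxes, 1 TATAAA and 1 octamer (ATTTGCAT or its reverse complement), and the H2ac23 window 2 CCAAT boxes and neither of the others. A CCAAT box on either strand was present in 85.7% of 56 clustered and 60% of 10 variant promoters against 37.4% of 32851 promoters of all genes, TATAAA on the gene's strand in 48.2%, 20.0% and 8.32%, and the octamer on either strand in 19.6%, 10% and 1.74%. These motifs are letter matches and their use in these cells was not measured.

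Genes that make, process or place histones were read from lists, which were chosen with earlier results of these data known. Of 30 genes of S phase and proliferation, edgeR called 5 higher and 1 lower in macrophages, beside 10.6% higher and 6.22% lower over all genes, and their median log2 difference was 2.16 beside -0.37 for all genes. Birc5, a subunit of the mitotic chromosomal passenger complex, differed by 2.90 ± 0.50 (adjusted p = 0.00164), E2f1, a factor that drives S phase genes, by 3.91 ± 0.76 (adjusted p = 0.00369) and Mcm5, a subunit of the replicative helicase, by 1.92 ± 0.51 (adjusted p = 0.0216). Tyms, which makes thymidylate, was the gene that was lower, by -2.13 ± 0.44 (adjusted p = 0.00509). Of 17 tested genes of histone mRNA transcription and processing, Slbp, the protein that binds the stem-loop, was higher in macrophages by 1.38 ± 0.23 (adjusted p = 0.00145), while Cpsf7 and Upf1 were lower, with a list median of -0.54. Of 23 tested chaperone and exchange genes 3 were higher and 2 lower, with a median of 0.16. The lower genes were Ubn2, of an H3.3 chaperone complex, at -1.40 ± 0.31 (adjusted p = 0.00746), and Ep400, of a complex that exchanges H2A.Z, at -1.04 ± 0.29 (adjusted p = 0.0292). Nap1l1, a chaperone of H2A and H2B, was higher by 4.72 ± 0.70 (adjusted p = 0.000609). With so few calls, the counts of the processing and chaperone lists lay near the shares of all genes. Asf1b, a chaperone of dividing cells that hands over H3 and H4, differed by 3.87 ± 0.83 (adjusted p = 0.00663) and Znhit1, a subunit of the complex that deposits H2A.Z, by 1.97 ± 0.26 (adjusted p = 0.000311). Among 4 histone variants outside the naming rule, H2aj, an H2A variant, was higher by 2.41 ± 0.22 (adjusted p = 2.21e-05). On log2(FPKM + 1) the differences of Slbp, Mcm5, Znhit1 and H2aj were -0.0091, 0.54, 0.53 and 0.997 and were not called by limma, while Birc5, E2f1, Asf1b and Nap1l1 were called higher there, by 2.00, 1.44, 2.26 and 1.78, and Tyms, Cpsf7, Upf1, Ubn2 and Ep400 lower. By limma 4 of 28 S phase genes were higher and 3 lower, 0 of 17 processing genes higher and 8 lower, and 2 of 23 chaperone genes higher and 7 lower, beside 4.47% and 38.6% of all genes. The median log2 difference on that scale was 0.28 for the S phase list, -1.15 for the processing list and -0.90 for the chaperone list, beside -0.89 for all genes. Neutrophil, NK and T cell markers were also higher in macrophage libraries, and their part in these differences was not tested. In bulk libraries, more cells of a type and more RNA per cell cannot be told apart.

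PFF was compared with MONO in each population, over 7 libraries with sex and genotype in the fit. H2ac24 aside, no histone gene was called by edgeR, of 29 tested in macrophages and 35 in microglia. Over all genes 0% of 11988 were called in macrophages and 0% of 12725 in microglia, although 125 and 765 genes had an unadjusted p under 0.05. None of these members had such a p in edgeR. DESeq2 called 0 members and 0.0667% and 0.204% of all genes in macrophages and microglia, and 0 of 29 and 2 of 35 members other than H2ac24 had an unadjusted p under 0.05, beside 3.73% and 10.6% of all genes. With limma on log2(FPKM + 1), which called 0 members and 0.0186% and 0% of all genes, 2 of 43 members other than H2ac24 had such a p in macrophages, both lower with PFF, and 6 of 47 in microglia, 4 higher and 2 lower, beside 2.78% and 2.07% of all genes. These were clustered genes, most of which share sequence and hence reads with other members. The member with the smallest p in macrophages was H3f3a, with a log2 difference of -0.61 ± 0.31 (unadjusted p = 0.0875, quasi-likelihood test), and in microglia H2ac19, with -7.15 ± 3.24, whose 50-base runs all occur in H2ac18. Log2 differences of the 6 variant members ran from -0.63 to 0.25 in macrophages and from -0.30 to 0.65 in microglia.

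H3f3b is given in every library because it is the largest signal. In macrophages it was at 3673 FPKM with MONO and 3348 with PFF in WT females, and at 4481 and 2680 in WT males. In CD163KO macrophages it was at 6885 and 9797 in females and at 1885 and 3579 in males. In these macrophage libraries it thus lay lower with PFF in WT and higher with PFF in CD163KO mice. Both male comparisons rest on the male WT PFF and male CD163KO MONO macrophage libraries, whose H3f3b to H3f3a ratio and TMM factor set them apart from the others and of which the second entered no test. Whether WT and CD163KO differed in this respect was not put to a test. In microglia it was at 703 with MONO and 868 with PFF in WT females, and at 1168 and 1721 in WT males. In CD163KO microglia it was at 1501 and 1180 in females and at 2186 and 597 in males. In these microglia libraries it thus lay higher with PFF in WT and lower in CD163KO mice, but only the WT female comparison holds none of the 3 microglia libraries that stand apart, so no order by genotype can be given without them. After TMM scaling, an alternative chosen after the values had been seen, the order turned in WT female macrophages, where scaled H3f3b was at 5265 with MONO and 10269 with PFF, and it held in the other 7 matched comparisons. Fitted over 7 libraries, its log2 difference was 0.01 ± 0.78 in macrophages and 0.65 ± 0.99 in microglia, in both cases smaller than its SE, and the values without 1 library ran from -0.64 to 0.60 and from -0.44 to 2.06.

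**Figure D5:**
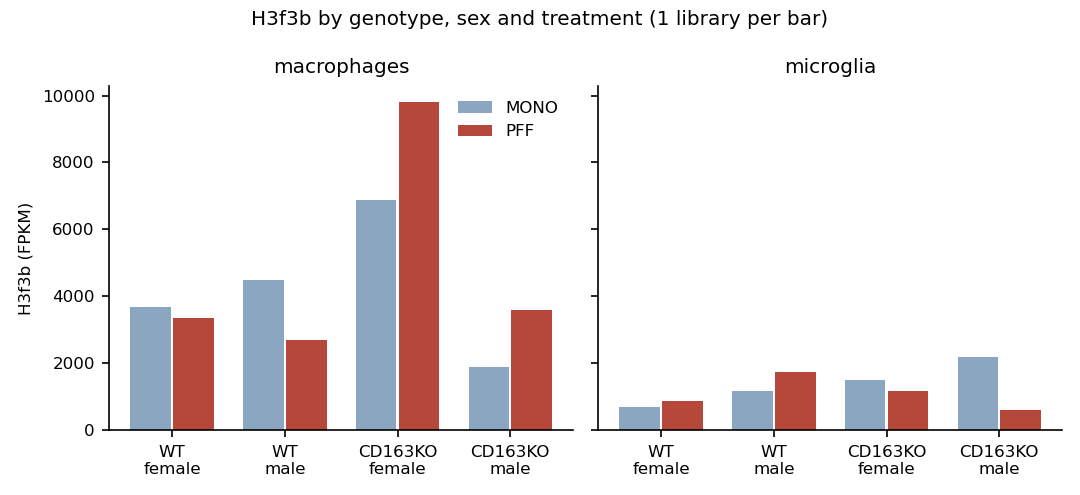
H3f3b in FPKM (linear axis from 0) by genotype, sex and treatment, 1 library per bar, in macrophages (left) and microglia (right). In macrophages the bars of CD163KO females are the highest, at 6885 and 9797 FPKM, and in microglia the male CD163KO MONO bar is, at 2186 FPKM.

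Over the 24 named members, the 4 matched comparisons of PFF with MONO went 1 way for few genes on deposited FPKM. In macrophages H2az2, H4c4 and H4c9 were lower with PFF in 4 of 4 and no member was higher in 4 of 4. After TMM scaling only H4c9, of the named members, was lower in 4 of 4 in macrophages. The male comparisons of these counts use the male WT PFF and male CD163KO MONO macrophage libraries. In microglia H4c4 was higher with PFF in 4 of 4 and no member was lower in 4 of 4, while after TMM scaling H4c4 and H2bc8 were higher and H4c9 lower in 4 of 4. The clustered sum with PFF was 0.451 to 0.846 times that with MONO in the 4 macrophage comparisons, with both ends from males and those libraries and with 0.723 in CD163KO and 0.490 in WT females, and 0.309 to 2.17 times in microglia, where both ends came from males and their libraries that stood apart. Of the 4 microglia comparisons only that of WT females, with a ratio of 1.11, holds none of those 3 libraries, so the 4 of 4 counts in microglia rest on them. After TMM scaling the macrophage ratios were 0.532 and 1.72 in CD163KO females and males and 1.05 and 0.554 in WT females and males, so the direction turned in 2 of 4 comparisons. In microglia they were 0.982 and 0.908 in CD163KO females and males and 1.20 and 1.44 in WT females and males, so that both male ratios turned. Over all macrophage genes tested the median log2 difference was -0.11 with edgeR on TMM-scaled counts and -0.26 with limma on log2(FPKM + 1). Neutrophil markers in macrophage libraries summed to 98601 FPKM with MONO and 32858 with PFF in CD163KO females and to 120958 and 22112 in WT females. They fell from 118330 to 71088 in WT males and rose from 82140 to 134489 in CD163KO males. Border-associated markers rose with PFF in females and CD163KO males and fell in WT males. The part of cell composition in the PFF comparisons was not tested.

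CD163KO was compared with WT in the same fits. H2ac24 aside, no histone gene of 29 and 35 was called by edgeR, while 0.00834% of 11988 genes were called in macrophages and 0% of 12725 in microglia, with 79 and 166 genes at an unadjusted p under 0.05. None of these members had such a p in edgeR. DESeq2 called 0 members and 0.0167% and 0.0236% of all genes in macrophages and microglia, and 1 of 29 and 0 of 35 members other than H2ac24 had an unadjusted p under 0.05, beside 3.54% and 3.97% of all genes. With limma on log2(FPKM + 1), which called 0 members and 0.0373% and 0% of all genes, 2 of 43 and 1 of 47 had such a p, beside 1.28% and 0.729% of all genes. The smallest p belonged to H4c3 in macrophages, with a log2 difference of 5.08 ± 3.19, and to H1f2 in microglia, with -0.70 ± 0.45 (unadjusted p = 0.146, quasi-likelihood test). The 6 variant members had log2 differences of 0.03 to 1.11 in macrophages, where H3f3b was highest at 1.11 ± 0.78 (unadjusted p = 0.192, quasi-likelihood test), and of -0.32 to 0.50 in microglia. For H3f3b in macrophages DESeq2 gave 1.10 ± 0.51 (unadjusted p = 0.0308) and limma 0.81 ± 0.33 (unadjusted p = 0.0140), with an adjusted p of 1.00 in each, and in edgeR the difference was 1.83 without the female WT PFF macrophage library and 0.84 to 1.41 without any 1 of the other 6. Over the 4 matched comparisons, H2bc8 was higher in CD163KO macrophages in 4 of 4, of which the male MONO comparison uses the male CD163KO MONO library, highest for H2bc8 at 32.23 FPKM, and the male PFF comparison the male WT PFF library, and no other named member went 1 way in 4 of 4 in either population on deposited FPKM. After TMM scaling H2bc8 was again higher in 4 of 4, and so was H2az2 in CD163KO microglia, where only the female PFF comparison holds none of the 3 microglia libraries that stand apart.

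H2ac24 is given beside H2ac23, with which it shares most of its sequence, and the part of the divided reads in its values was not tested. In macrophages it was listed at 0 in the female CD163KO PFF, female WT MONO and female WT PFF libraries, and at 20.7 to 95.3 FPKM in the other 5. In microglia it was listed at 0 in the male CD163KO MONO and male WT PFF libraries and at 13.5 to 39.4 FPKM in the other 6. H2ac23 was at 29.4 FPKM or more in every library. In macrophages H2ac24 differed between PFF and MONO by -4.65 ± 3.85 and between CD163KO and WT by 4.94 ± 3.86 on the log2 scale, and without the male WT PFF macrophage library by -10.98 and 11.12, the size of which rests on libraries at 0. The sum of H2ac23 and H2ac24 in macrophages was 188 FPKM with MONO and 86.7 with PFF in WT females and 327 and 216 in WT males. In CD163KO macrophages the sum was 168 and 53.1 FPKM in females and 204 and 170 in males. The sum was thus lower with PFF in 4 of 4 matched comparisons in macrophages, on deposited FPKM, and was above 0 in every library. This count needs the male CD163KO MONO and male WT PFF libraries. H2ac23 alone was lower in 3 of 4, so the count also rests on H2ac24, whose differences were known when the family was chosen. It is a description and carries no test. After TMM scaling the sum was lower in 3 of 4, with 130 with MONO and 415 with PFF in CD163KO males. In microglia it was 83.3 FPKM with MONO and 52.3 with PFF in CD163KO females and 42.3 and 81.5 in CD163KO males. In WT microglia it was 82.8 and 80.6 in females and 52.3 and 29.4 in males. After TMM scaling it was higher with PFF in WT and lower in CD163KO microglia of both sexes. Only the WT female comparison holds none of the microglia libraries that stand apart.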

How the data were processed

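The authors filtered SMART-seq2 reads by quality and adaptor content, mapped them with Bowtie2, per the labels to mm10, and estimated levels per RefSeq transcript with RSEM. The deposited tables, 1 for each of 16 libraries, hold expected counts and FPKM values per transcript, and list only transcripts above 0. Of 27787 transcripts, 99.4% matched a symbol in the RefSeq table, and both units were summed per symbol, with unlisted genes set to 0. The sums of counts, rounded, were tested with edgeR 4.0.16 (quasi-likelihood, TMM, filterByExpr, Benjamini-Hochberg over all genes), and FPKM levels with limma 3.58.1 on log2(FPKM + 1), a pseudocount of 1 that understates the change of low genes. DESeq2 1.42.0 was an alternative. The male CD163KO MONO libraries were left out of the tests, as in the study.

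The population fit has the condition as a block, because both populations of a condition were sorted from the same group of mice. Whether 2 libraries share a brain is not stated. Deviations of matched libraries correlated at -0.12 to 0.13, and 1 of 8 libraries matched its own condition best.

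Members and lists were chosen with earlier results of these data known. Named were the variant members with an FPKM of at least 1 in any library, the 15 clustered members with the highest median, members called and H2ac24, with up to 5 called genes of each list. In simulated data of the population fit, 50.5% of 2-fold and 100% of 4-fold changes were recovered. In the within-population fits the shares were 0% to 13.5% and 96.0% to 98.0%, so small differences were beyond these 7 libraries. In the within-population fits of the measured counts, the median SE of the histone members was 1.92 to 2.27 on the log2 scale. Changes of 4-fold were therefore also beyond these libraries for many members. The recovery of changes in the histone members themselves was not tested. Total counts of 8648751 to 21433841 set the counting precision, and GENCODE M21 and RefSeq sequences of GRCm38 were not those of the authors' index.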

Additional observations from a re-analysis of the deposited data

Results flagged for a closer look

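Among 56 sets of 8 libraries, made of 24 named genes and 4 summed quantities in each population, 9 held a library that stood out. Its gap to its nearest neighbour took up more of the range than Dixon's 95% critical value allows. That value holds for normally distributed replicates, while these sets hold 8 different conditions, some at 0. A set with 1 library above 0 exceeds it by construction, as for H1f10 and H1f7 in microglia. The count of 9 was therefore not set against a rate given by chance. In macrophages the male CD163KO MONO library was highest for H2ax (49.58 FPKM, next 25.94), H2bc8 (32.23, next 15.56) and H4c8 (9.04, next 2.16), the male WT PFF library for H2bc23 (24.24, next 12.0) and the female WT MONO library for H1f10 (3.91, next 0.43). In microglia the female WT MONO library was highest for H4f16 (3.66 FPKM, next 0.33) and H1f7 (2.96, the others at 0), the female CD163KO MONO library for H4c3 (14.72, next 5.79) and the male WT PFF library for H1f10 (0.1, the others at 0). The male CD163KO MONO libraries entered none of the main tests. H2bc23 was called higher in macrophages without the male WT PFF macrophage library too. Over the 14 fits that left out 1 library the log2 difference between macrophages and microglia was 2.14 to 2.32 for H2ax, 0.54 to 0.997 for H2bc8, -1.19 to -0.27 for H4c8 and -1.15 to 0.38 for H4c3, which was at -0.063 without the female CD163KO MONO microglia library. H1f10, H4f16 and H1f7 did not pass the filter on low counts.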

How the results depend on the processing

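The number of histone genes called between the populations was 8 and ranged from 8 to 10 over the 14 fits that left out 1 library. It was 10 without the condition block (additive sex, genotype and treatment), 9 with DESeq2, 9 by adjusted p alone and 6 with limma on log2(FPKM + 1), where the genes differ. Over all genes the limma fit called 5739, and DESeq2 1951 higher and 2312 lower, against 2311 in all. On log2(FPKM + 1) the log2 difference turned sign for H1f2 (-0.33), H2ac18 (-0.43), H2ac24 (-0.77), H2ac8 (-0.10), H2bc21 (-0.12), H2bc4 (-0.63), H2bc8 (-0.60), H4c17 (-0.15) and H4c4 (-0.83). It also turned for H2ac24 (-0.013) and H4c4 (-0.35) without the filter, for H4c4 (-0.021) with DESeq2, and for H2ac24 (-2.16), H4c3 (0.83) and H4c9 (0.093) without the female CD163KO MONO and male WT PFF microglia libraries, a setting chosen after seeing the data. Leaving out 1 library gave -1.22 to 1.53 for H2ac24, -1.15 to 0.38 for H4c3, -0.77 to 0.75 for H4c4 and -0.86 to 0.025 for H4c9.

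TMM scaling moved the median log2 difference between macrophages and microglia to 1.19 for the clustered sum and to 3.77 for the variant sum. Between treatments and genotypes the number of histone genes called was 0 in each alternative, except that it ranged from 0 to 1 for PFF and for CD163KO in macrophages when 1 library was left out. The 1 was H2ac24 without the male WT PFF macrophage library, whose differences were known when the family was chosen, so that no test is drawn from it. Leaving out 1 library gave H2ac24 log2 differences of -10.98 to 0.64 for PFF and -0.50 to 11.12 for CD163KO in macrophages and of -0.32 to 2.91 for CD163KO in microglia. It gave H3f3b -0.64 to 0.60 for PFF in macrophages, 0.84 to 1.83 for CD163KO in macrophages, -0.44 to 2.06 for PFF in microglia and -1.78 to 0.92 for CD163KO in microglia. H3f3b with PFF was at -0.0018 with median-of-ratios scaling, -0.0020 with DESeq2 and -0.26 with limma in macrophages, and at -0.090 with limma and -0.12 without the 2 microglia libraries in microglia. With CD163KO it was at 0.21 in microglia with the male CD163KO MONO library and at 0.077 without the 2 microglia libraries, where H2ac24 was at 0.33 with PFF and -0.29 with CD163KO. The other alternatives for the class sums moved them by less than the spread between conditions. The cause of these changes was not tested. The numbers of counts behind most clustered genes, several at 0 in some libraries, limit what these comparisons can show.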

Other observations

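Clustered genes whose RefSeq model is longer than the usual short histone mRNA included H2bc21, at 2667 bases, H2bc6, at 2509, and H2bc23, at 2121, against 366 to 558 bases for H2ac18, H2ac23, H2ac24, H2ac8, H4c3, H4c4, H4c8, H4c9, H4c17 and H4c18. H2bc6, named after its values were seen, held a stem-loop match followed by 1861 further bases and was higher in microglia in 7 of 8 conditions on deposited FPKM, at 0.64 to 6.89 FPKM (median 2.04) against 0.14 to 2.71 in macrophages (median 0.275). H2bc14, also named after its values were seen, went the other way, at 0 to 35.0 FPKM in macrophages (median 1.47) and listed at 0 in 7 of 8 microglia libraries. As a share of all counts, histone genes took 0.551% to 1.98% in macrophages and 0.203% to 0.472% in microglia, higher in macrophages in 8 of 8 conditions, with H3f3b as the main part.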
